A study of Homo sapiens with 9 samples.

Results

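The genes described here are the nuclear-encoded subunits of the mitochondrial respiratory chain and ATP synthase. They were chosen by symbol alone: protein-coding genes of the NDUFA, NDUFB, NDUFC, NDUFS and NDUFV series (complex I), SDHA to SDHD (complex II), the UQCR series and CYC1 (complex III), the COX4I, COX5, COX6, COX7 and COX8 series (complex IV) and the ATP5 series (complex V), without assembly factors and pseudogenes. This gave 92 members among 78899 gene IDs, with 38 in complex I, 4 in complex II, 10 in complex III, 19 in complex IV and 21 in complex V. NDUFA4 and its paralogue NDUFA4L2 carry complex I names and were counted with complex IV, where NDUFA4 is known to sit. DMAC2L, an ATP synthase-linked factor, entered through its older symbol ATP5S, and ATP5IF1 is the inhibitor of the synthase rather than a subunit of it. Both NDUFC2-KCTD14 and ATP5MF-PTCD1 are read-through genes, which join the exons of a member to those of its neighbour.

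RNA-seq counts came from 9 libraries of HaCaT, an established line of immortalized human keratinocytes grown in low-calcium medium with serum. Fluorescence-sorted subpopulations of the line named BD and NBD gave 3 libraries each, and the line itself, named control, gave 3. The labels do not spell out BD and NBD, name no marker used for sorting, and give no treatment or engineered allele. The stated interest of the study is in cell states linked to progenitors, and the labels leave unsaid whether the replicates were separate cultures. The p-values therefore cover only the variation among these libraries, part or all of which may be technical.

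The respiratory chain passes electrons from NADH (complex I) and succinate (complex II) through ubiquinone to complex III, by cytochrome c to complex IV and on to oxygen, and the proton gradient built on the way drives ATP synthase (complex V). A small core of complexes I, III, IV and V is encoded by mitochondrial DNA, complex II is wholly nuclear-encoded, and the remaining subunits are nuclear genes whose mRNAs are short and abundant. Their promoters are known for sites of NRF1, of the ETS factor GABP and of YY1. In keratinocytes, mitochondria are known both as a source of ATP and for the reactive oxygen species that take part in differentiation.

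Total counts were 17128797 to 29512856 per library, with control replicates 1 and 2 the shallowest at 18054999 and 17128797. The members took 0.757% to 1.14% of all counts. Of 12 keratinocyte markers, 12 were at 1 CPM (counts scaled to the normalised library total) or more in every library, and their summed level was 3179 to 5754 CPM per library. The summed levels of fibroblast, melanocyte, immune and endothelial markers were each at most 19.0 CPM in any library. Control replicates 1 and 2 stood apart from control replicate 3 and from the sorted libraries. BNIP3, a hypoxia-induced mitophagy receptor, was at 95.4 and 91.3 CPM in them, against 5.99 CPM in control replicate 3 and 4.56 to 11.05 CPM in the 6 sorted libraries. LDHA, which turns pyruvate into lactate, was at 2128 and 2182 CPM in them, against 477 CPM in control replicate 3. Calls against control are therefore given with and without control replicate 3.

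Of the 92 members, 83 had enough counts to be tested and 9 did not. The 9 were COX4I2, COX6A2, COX6B2, COX7A1, COX7B2 and COX8C, which are isoforms known from lung, muscle or testis, together with ATP5MGL and both read-through genes. COX6A2, COX7A1, COX8C and NDUFC2-KCTD14 had 0 counts in every library, where 3 counts correspond to 0.103 to 0.168 CPM. COX6B2, the testis isoform of COX6B, had 5, 3 and 1 counts in BD, 1, 11 and 0 in NBD and none in the controls. Complex IV in these cells was thus read from the widely expressed isoforms COX4I1, COX6A1, COX6B1, COX7A2, COX7B and COX8A, which were at 61.7 to 315 CPM in the 9 libraries.

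Of the 83 members tested, 77 were at 10 CPM or more in all libraries. Levels were compared between genes per kilobase of transcript, as the mean over the 9 libraries. The median was 92.8 CPM per kb over the 83 members. It was 56.6 CPM per kb in complex I, 49.7 in complex II, 86.6 in complex III, 214 in complex IV and 117 in complex V. COX7B, a small subunit of complex IV, was the highest at 527 CPM per kb, followed by ATP5F1B, the catalytic beta subunit of ATP synthase, at 518 CPM per kb and its alpha partner ATP5F1A at 403 CPM per kb. In complex I, NDUFB9, an accessory subunit of the membrane arm, led at 213 CPM per kb. UQCRH, the hinge protein that binds cytochrome c1, led complex III at 288 CPM per kb, and the iron-sulfur subunit SDHB led complex II at 131 CPM per kb. The lowest were NDUFA7 at 0.995, NDUFA4L2 at 1.11, DMAC2L at 1.15, NDUFA13 at 1.23, SDHC at 1.85 and NDUFV2 at 2.72 CPM per kb. The transcript lengths taken for DMAC2L and SDHC, 10212 and 13566 bases, are long for these proteins and lower their values on this scale.

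NDUFA13 and NDUFV2 encode a membrane-arm subunit and a flavoprotein-site subunit that the complex needs, and their levels in the 9 libraries were 0.664 to 1.93 CPM and 1.42 to 5.07 CPM. Other annotated genes cover 21.0% of the exon length of NDUFA13, 33.5% of NDUFA7 and 28.4% of NDUFV2. Another gene overlapped 46 of the 83 tested members on either strand, 46 had at least 1 pseudogene by name, and 14 had neither. The sources used here do not give the strand setting of the counting or its handling of multiply matching reads, and the counts of such members are uncertain.

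The promoters of 5 of the members that the comparisons below turn on, each holding an NRF1 or ETS motif, are printed here so that these motifs can be seen in place. The RefSeq table for GRCh38.p14 held a promoter window for 71 of the 92 members, from 250 bases before the start of the gene to 50 bases after it, and 15842 protein-coding windows in all. Searched on both strands, GCGCATGC (an NRF1 site) was in 18.3% of member windows and 4.26% of all windows, and the shorter TGCGCA, which overlaps it in part, in 28.2% and 10.8%. CCGGAAGT (an ETS or GABP site) was in 14.1% and 6.19%, and AAGATGGC (a YY1 site) in 15.5% and 3.91%. At least 1 of these 4 was in 34 of the 71 member windows (47.9%) and in 20.1% of all windows. ACGTG, the core of a hypoxia-inducible factor site, was in 25.4% and 23.7%. The windows below run 5′ to 3′ on the strand of the gene, and capitals mark GCGCATGC, TGCGCA or CCGGAAGT in either orientation.
COX6A1, chr12:120437863-120438162, plus strand: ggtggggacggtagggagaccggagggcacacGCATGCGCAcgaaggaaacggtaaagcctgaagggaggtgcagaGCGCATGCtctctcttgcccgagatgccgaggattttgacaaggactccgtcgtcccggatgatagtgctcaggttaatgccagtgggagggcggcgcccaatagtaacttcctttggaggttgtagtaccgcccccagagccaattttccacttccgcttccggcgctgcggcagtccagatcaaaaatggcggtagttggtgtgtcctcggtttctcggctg
COX5B, chr2:97645812-97646111, plus strand: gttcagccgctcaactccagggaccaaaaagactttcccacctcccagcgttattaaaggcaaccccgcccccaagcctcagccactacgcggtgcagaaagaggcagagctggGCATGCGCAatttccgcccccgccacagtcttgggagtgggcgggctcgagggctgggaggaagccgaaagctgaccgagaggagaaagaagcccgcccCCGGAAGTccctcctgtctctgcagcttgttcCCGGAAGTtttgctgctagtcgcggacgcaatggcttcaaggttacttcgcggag
SDHD, chr11:112086623-112086922, plus strand: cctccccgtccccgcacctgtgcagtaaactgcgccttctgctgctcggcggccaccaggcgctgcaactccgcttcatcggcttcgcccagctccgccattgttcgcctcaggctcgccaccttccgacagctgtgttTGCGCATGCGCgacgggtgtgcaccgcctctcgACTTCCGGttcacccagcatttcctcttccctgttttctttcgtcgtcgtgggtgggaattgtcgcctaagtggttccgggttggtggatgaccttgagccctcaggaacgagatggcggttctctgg
ATP5PD, chr17:75046920-75047219, minus strand: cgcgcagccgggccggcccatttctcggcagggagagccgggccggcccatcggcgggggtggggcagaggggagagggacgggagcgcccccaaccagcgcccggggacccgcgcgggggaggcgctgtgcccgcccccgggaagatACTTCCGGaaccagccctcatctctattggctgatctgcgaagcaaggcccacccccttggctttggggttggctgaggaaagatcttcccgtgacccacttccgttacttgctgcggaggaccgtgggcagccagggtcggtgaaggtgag
ATP5MK, chr10:103396426-103396725, minus strand: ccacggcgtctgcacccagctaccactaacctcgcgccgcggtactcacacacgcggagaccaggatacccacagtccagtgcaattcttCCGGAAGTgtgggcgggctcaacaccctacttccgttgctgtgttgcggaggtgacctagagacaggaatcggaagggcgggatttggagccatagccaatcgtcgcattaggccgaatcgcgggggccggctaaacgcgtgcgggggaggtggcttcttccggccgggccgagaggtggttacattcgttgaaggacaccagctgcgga
COX5B and SDHD carried both kinds of site, COX6A1 the NRF1 letters at 2 places, and ATP5PD and ATP5MK the ETS letters once. The windows of COX5A, COX6B1 and NDUFB10, which were called in the same comparison, held none of the 4 motifs and are not printed. NDUFA3 was called there too, and its window held TGCGCA and AAGATGGC but is not printed either. A match describes the letters of the window and does not show that a factor binds there.

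The first comparison, BD against NBD, asks how the sorted subpopulations differ. No member was called by edgeR's quasi-likelihood test (Benjamini-Hochberg adjusted p under 0.05 over 16921 genes), where 0.0177% of all genes were called, and 0 members had an unadjusted p under 0.05, beside 2.04% of all genes higher and 3.82% lower at that level. DESeq2 and limma-voom called 0 members as well, with 0 at an unadjusted p under 0.05. Shares over all genes for those tools are not given here. Most members nevertheless lay slightly above 0: 66 of 83 had a positive log2 fold change, with a median of 0.14, against 48.4% of all genes and a median of -0.015. The tilt was not particular to the members. Of the cytoplasmic ribosomal protein genes 73 of 77 were above 0, with a median of 0.29, and of the tricarboxylic acid cycle enzymes 10 of 14, with 0.19. Assembly factors had 32 of 52 above 0 and a median of 0.071, and biogenesis regulators 6 of 15 and -0.018. The members' medians were 0.081 in complex I, -0.073 in complex II, 0.20 in complex III, 0.20 in complex IV and 0.15 in complex V. In complex IV 12 of 13 members were above 0, in complex III 9 of 10, and in complex II 1 of 4.

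The members' tilt rested on single libraries. Without BD replicate 2 the median log2 fold change of the members was 0.0086, without NBD replicate 1 it was 0.0026, and without NBD replicate 3 it was 0.30. Within each sorted group the members moved up and down together between replicates. BD replicate 1 was the lowest of the BD libraries for 69 of the 83 members and BD replicate 2 the highest for 74. NBD replicate 1 was the lowest of its group for 71 members and NBD replicate 3 the highest for 74. Over all genes tested the corresponding shares were 38.5%, 32.2%, 38.6% and 38.0%. Among the controls, replicate 1 was the lowest for 58 members, beside 32.8% of all genes, and replicate 3 the highest for 44, beside 43.8%. Replicate 1 was thus most often the lowest library in every group. The median coefficient of variation of the members was 14.3% in BD, 23.4% in NBD and 14.0% in the controls.

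**Figure D1:**
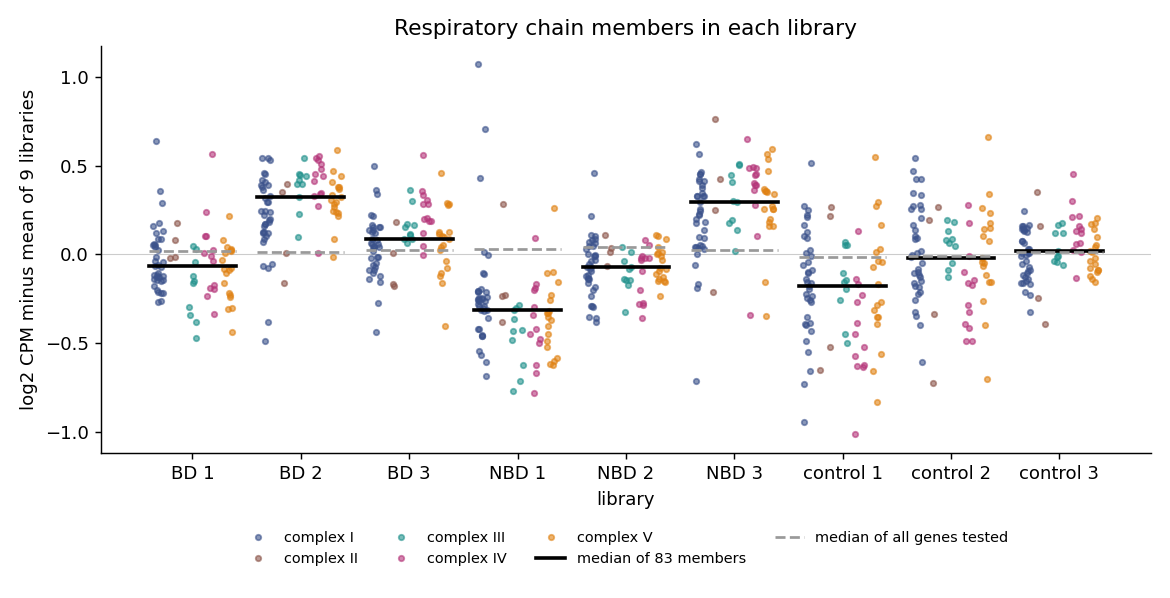
Each point is 1 of the 83 tested members in 1 library, plotted as its log2 CPM minus its mean over the 9 libraries, coloured by complex; the black line is the median of the members and the dashed line that of all genes tested. The members' median ran from -0.32 in NBD replicate 1 to 0.32 in BD replicate 2 and 0.29 in NBD replicate 3, while the median of all genes was between -0.014 and 0.039.

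Other short transcripts moved with the members. The median transcript length was 878 bases for the members and 2484 bases for all genes tested. In BD replicate 2, NBD replicate 1 and NBD replicate 3 the members deviated from their 9-library mean by a median of 0.32, -0.32 and 0.29 (log2). The cytoplasmic ribosomal protein genes, with a median length of 802 bases, deviated by 0.45, -0.76 and 0.31. Nuclear protein-coding genes with transcripts of at most 1875 bases deviated by 0.23, -0.24 and 0.18, and those with transcripts of at least 4586 bases by -0.14, 0.12 and -0.073. With the trend of fold change on transcript length removed, the members' median for BD against NBD was 0.15. The part of transcript length and library in the spread between replicates was not tested.

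Groups did not overlap for 5 members, all higher in BD, which is 6.02% of the 83, beside 7.19% of all genes that were higher in every BD library and 7.36% that were lower in every BD library. The 5 were NDUFA4L2, NDUFS7, NDUFA11, NDUFA9 and CYC1, a share near the background. NDUFA4L2, a hypoxia-inducible paralogue of NDUFA4, was at 1.84, 1.81 and 1.83 CPM in BD, at 0.889, 1.20 and 0.944 CPM in NBD and at 0.562, 0.953 and 1.69 CPM in the controls. Its BD libraries were close to each other and lay above all others, with control replicate 3 the nearest. NDUFA4L2 had only 53, 46 and 53 counts in BD, so that closeness is not read as a trait of it. Its log2 fold change against NBD was 0.85 ± 0.43 (SE; edgeR adjusted p = 0.814).

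NDUFS7, an iron-sulfur subunit at the ubiquinone site of complex I, was at 45.4, 52.3 and 46.8 CPM in BD and 34.8, 30.7 and 40.9 CPM in NBD, which gave a log2 fold change of 0.44 ± 0.21 (edgeR adjusted p = 0.814). CYC1, the heme subunit that hands electrons to cytochrome c, was at 193, 258 and 197 CPM in BD and 152, 171 and 191 CPM in NBD (0.33 ± 0.18, edgeR adjusted p = 0.816). The groups touch closely for CYC1, with BD replicate 1 just above NBD replicate 3. NDUFA11 and NDUFA9, accessory subunits of complex I, had log2 fold changes of 0.34 ± 0.21 and 0.27 ± 0.19. Their groups touched closely too. The lowest BD library of NDUFA11 was at 13.72 CPM and the highest NBD library at 13.61 CPM, and for NDUFA9 these were 29.50 and 29.19 CPM.

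ATP5F1B, ATP5F1A and UQCRFS1 overlapped between BD and NBD. ATP5F1B was at 951, 1160 and 1014 CPM in BD and 808, 898 and 1059 CPM in NBD, with a log2 fold change of 0.18. ATP5F1A was at 794, 906 and 803 CPM in BD and 654, 703 and 872 CPM in NBD, with 0.17. UQCRFS1, the Rieske iron-sulfur protein of complex III, was at 139, 179 and 152 CPM in BD and 116, 129 and 163 CPM in NBD, with 0.20. In each of the 3, NBD replicate 3 reached into the BD range. The same held for NDUFB11 (log2 fold change 0.45 ± 0.27) and COX5A (0.33 ± 0.21).

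Among the other core subunits of complex I, NDUFS1, the largest iron-sulfur subunit of the peripheral arm, was at 191, 218 and 202 CPM in BD, 173, 194 and 237 CPM in NBD and 186, 199 and 200 CPM in the controls. NDUFV1, which binds NADH, was at 167, 205 and 198 CPM in BD, 184, 163 and 182 CPM in NBD and 152, 194 and 203 CPM in the controls. Both had overlapping groups with no library far from the others. NDUFS3 was at 66.2, 106 and 66.3 CPM in BD, 59.6, 72.6 and 82.6 CPM in NBD and 64.4, 80.2 and 67.7 CPM in the controls, and BD replicate 2 stood alone at the top. NDUFS8 was at 79.7, 111 and 87.2 CPM in BD, 67.0, 68.1 and 89.3 CPM in NBD and 73.0, 99.7 and 88.2 CPM in the controls.

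Count ratios of paralogues, which are not per length, were set side by side across libraries and not read as levels. The ratio of UQCRH to UQCRHL, an intronless copy whose reads may be shared with it, was 4.56 to 6.18. The c-ring of ATP synthase is encoded by ATP5MC1, ATP5MC2 and ATP5MC3, which differ in their import signals and give the same mature protein. ATP5MC3 was at 180, 247 and 201 CPM in BD, 139, 174 and 243 CPM in NBD and 156, 187 and 209 CPM in the controls. Its count ratio was 1.57 to 2.41 to ATP5MC1 and 1.67 to 2.16 to ATP5MC2, and that of COX5A to COX5B was 0.507 to 0.632, with overlapping groups in all 3. NDUFA4, a complex IV subunit, was at 232, 327 and 300 CPM in BD, 152, 219 and 366 CPM in NBD and 157, 166 and 288 CPM in the controls, where control replicate 3 again stood with the sorted libraries. ATP5IF1, which blocks ATP hydrolysis by the synthase when the proton gradient fails, was at 41.1, 70.4 and 62.1 CPM in BD, 38.3, 53.9 and 64.8 CPM in NBD and 39.7, 45.6 and 51.2 CPM in the controls. Its ratio to ATP5F1B was 0.0432 to 0.0613 over the 9 libraries, with overlapping groups.

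The mitochondrially encoded partners of these subunits moved further than the members. All 13 were lower in BD than in NBD, with a median log2 fold change of -1.80, and the 3 genes called among all 16921 were MT-ND4, MT-CYB and MT-ATP6. Set against them, the nuclear-encoded sums were higher in BD for every complex that has both kinds of subunit. For complex I the nuclear-encoded counts per mitochondrially encoded count were 11.6, 20.3 and 15.8 in BD, 3.96, 2.97 and 5.56 in NBD and 7.68, 7.97 and 10.3 in the controls. For complex IV they were 0.346, 0.599 and 0.441 in BD, 0.181, 0.200 and 0.272 in NBD and 0.557, 0.626 and 0.403 in the controls. For complex V they were 88.3, 140 and 102 in BD and 24.6, 16.4 and 34.4 in NBD, and for complex III over MT-CYB 16.5, 26.3 and 19.5 in BD and 5.05, 4.98 and 7.93 in NBD. BD and NBD did not overlap in any of the 4 ratios, and for complexes I, III and V all controls lay between them. The numerators overlapped between the groups. The members summed to 10169 ± 1337 CPM in BD, 9184 ± 2072 CPM in NBD and 8909 ± 783 CPM in the controls (SD, n = 3 each), while the mitochondrially encoded subunits summed to 4803 ± 565, 9239 ± 708 and 3722 ± 1301 CPM. In bulk RNA, fewer transcripts per mitochondrion and fewer mitochondria per cell cannot be told apart, nor can fewer cells of a type and less RNA per cell.

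**Figure D2:**
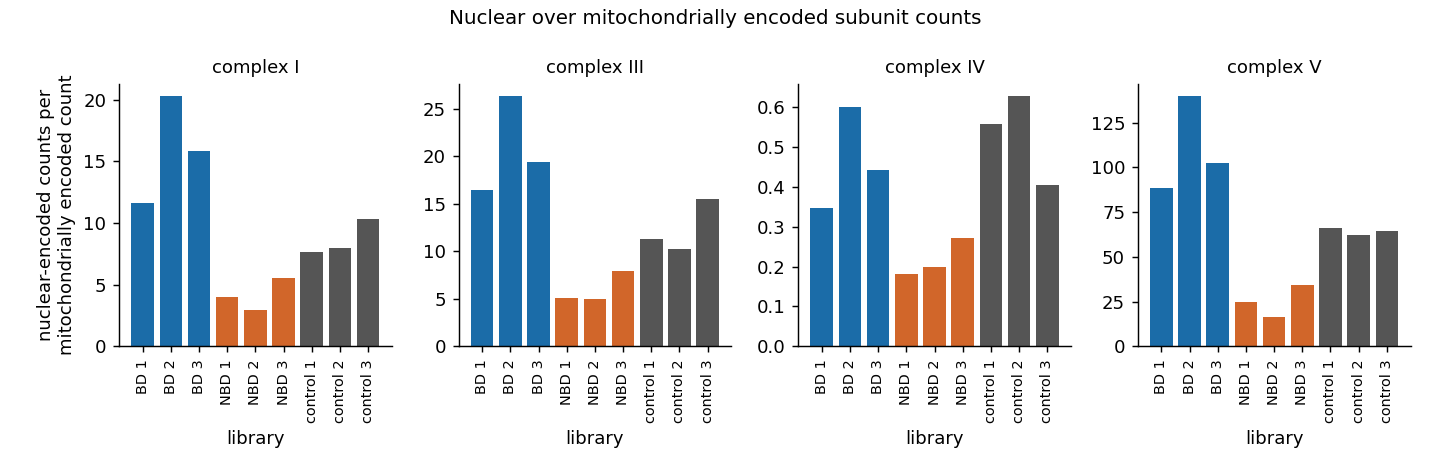
Bars give, for each library, the summed counts of nuclear-encoded members divided by the summed counts of mitochondrially encoded subunits of the same complex (MT-CYB for complex III), with a separate axis per complex that starts at 0. The 3 NBD bars are the lowest in every panel, and complex IV of the controls (0.403 to 0.626) overlaps BD.

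The second comparison sets BD against the unsorted line. With all 9 libraries, edgeR's quasi-likelihood test called 0 members and 0.0% of all genes. At an unadjusted p under 0.05, 6 of the 83 members were higher and 1 lower by edgeR, beside 801 of the 16921 genes (4.73%) higher and 1533 (9.06%) lower. DESeq2 and limma-voom called 0 members, with 6 and 7 higher and 1 lower each at that level. Shares over all genes for those tools are not given here, so these counts have no background beside them. The median log2 fold change was 0.17 (62 of 83 above 0), against 0.027 for all genes, and was highest in complex IV at 0.31 with 12 of 13 above 0. Without BD replicate 2 the median was 0.063, without control replicate 1 it was 0.097, and without BD replicate 1 it was 0.27. With the transcript length trend removed it was 0.096. Every BD library exceeded every control for 11 members (13.3%), beside 8.05% of all genes, and COX6C, a small complex IV subunit, was lower without overlap, beside 7.72% of all genes. COX6C was at 98.0, 124 and 123 CPM in BD and 135, 150 and 135 CPM in the controls, with a log2 fold change of -0.28 that did not pass the test.

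Without control replicate 3, edgeR called 10 members higher and 1 lower of the 83 in BD against control. Over all 17755 genes tested then, 13.8% were called higher and 10.5% lower, so the members' 12.0% and 1.20% compare with those shares. Of the 10, 5 are subunits of complex IV, 2 each of complexes I and V, and 1 of complex II, and no complex III member was called. For each of the 10, control replicate 3 lay above both other controls and inside the range of the sorted libraries. They were called only when that library was left out, so this position follows in part from how they were picked. Control replicate 3 was above both other controls for 44 of the 83 tested members (53.0%), beside 43.8% of all genes. When control replicate 3 alone stood for the controls, the members' median log2 fold change in BD was 0.095, against 0.021 for all genes.

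Complex IV held COX6A1, COX5B, COX5A, COX6B1 and NDUFA4L2. COX6A1, the ubiquitous isoform of subunit VIa, was at 142, 163 and 151 CPM in BD, 128, 93.7 and 154 CPM in NBD and 77.6, 85.8 and 121 CPM in the controls. BD lay above all 3 controls, while NBD replicate 2 fell between control replicates 2 and 3. Its log2 fold change against control was 0.68 ± 0.23 with all libraries (edgeR adjusted p = 0.333) and 0.91 ± 0.23 without control replicate 3 (edgeR adjusted p = 0.0150). COX5B, a zinc-binding matrix-side subunit, was at 171, 247 and 208 CPM in BD, 150, 138 and 222 CPM in NBD and 108, 127 and 195 CPM in the controls. Control replicate 3 was above BD replicate 1, so the groups overlapped. The COX5B log2 fold change was 0.54 ± 0.27 with all libraries and 0.84 ± 0.25 without control replicate 3 (edgeR adjusted p = 0.0339).

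COX5A, its partner next to the catalytic core, was at 105, 139 and 118 CPM in BD, 85.4, 84.8 and 118 CPM in NBD and 67.7, 80.0 and 98.8 CPM in the controls, and BD did not overlap the controls. It rose by 0.72 ± 0.22 (log2) without control replicate 3 (edgeR adjusted p = 0.0343), against 0.55 ± 0.21 with all libraries. COX6B1, which bridges the monomers of the complex IV dimer, was at 102, 120 and 108 CPM in BD and 61.7, 72.4 and 103 CPM in the controls. It rose by 0.73 ± 0.21 without control replicate 3 (edgeR adjusted p = 0.0278), against 0.48 ± 0.23 with all libraries, and the groups overlapped through that library. NDUFA4L2, at under 2 CPM, rose by 1.28 ± 0.42 without control replicate 3 (edgeR adjusted p = 0.0475), and its log2 fold change with all libraries was 0.75 ± 0.43 (edgeR adjusted p = 0.427). The ratio of NDUFA4 to NDUFA4L2 counts was 126, 181 and 164 in BD, 171, 183 and 388 in NBD and 280, 175 and 170 in the controls, where the groups overlapped.

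In ATP synthase, ATP5PD, subunit d of the peripheral stalk, had the second largest rise. It was at 188, 277 and 253 CPM in BD, 144, 184 and 277 CPM in NBD and 103, 113 and 212 CPM in the controls. Control replicate 3 was far above the other controls and above the lowest BD library. The ATP5PD log2 fold change was 0.74 ± 0.33 with all libraries (edgeR adjusted p = 0.357) and 1.16 ± 0.29 without control replicate 3 (edgeR adjusted p = 0.0151). ATP5F1D, the delta subunit of the rotor stalk, was at 24.1, 28.1 and 25.2 CPM in BD and 13.1, 18.6 and 19.5 CPM in the controls, with no overlap. It rose by 0.72 ± 0.23 without control replicate 3 (edgeR adjusted p = 0.0454) and had 0.60 ± 0.22 with all libraries.

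ATP5MK, a small membrane subunit linked to dimers of the synthase and formerly named ATP5MD, was the member called lower. It was at 60.1, 86.4 and 61.5 CPM in BD, 53.6, 73.8 and 104 CPM in NBD and 119, 129 and 76.9 CPM in the controls. Control replicates 1 and 2 lay above every sorted library, and control replicate 3 inside the BD range. Its log2 fold change against control was -0.64 ± 0.28 with all libraries and -0.83 ± 0.27 without control replicate 3 (edgeR adjusted p = 0.0451). The count ratio of ATP5F1B to ATP5F1A, subunits that the enzyme holds in equal number, was 1.06 and 1.07 in control replicates 1 and 2, 1.35 in control replicate 3 and 1.20 to 1.28 in the sorted libraries.

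In complex I, NDUFB10 and NDUFA3 were called. NDUFB10, an accessory subunit on the intermembrane side, was at 94.3, 127 and 110 CPM in BD, 72.6, 81.3 and 99.5 CPM in NBD and 55.0, 69.4 and 95.0 CPM in the controls. It rose by 0.84 ± 0.21 without control replicate 3 (edgeR adjusted p = 0.0172), against 0.59 ± 0.23 with all libraries. NDUFA3, a small accessory subunit, was at 28.9, 37.4 and 35.0 CPM in BD, 22.9, 29.2 and 36.5 CPM in NBD and 14.1, 20.7 and 30.4 CPM in the controls. It rose by 0.97 ± 0.25 without control replicate 3 (edgeR adjusted p = 0.0191), against 0.63 ± 0.28 with all libraries. In both, control replicate 3 just reached the lowest BD library. The core subunits NDUFS1, NDUFS3, NDUFS7, NDUFS8, NDUFV1 and NDUFV2 were not called in any comparison with all libraries or without control replicate 3.

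In complex II, SDHD, a membrane anchor that binds ubiquinone, was at 132, 149 and 117 CPM in BD, 89.2, 125 and 197 CPM in NBD and 73.9, 70.5 and 149 CPM in the controls. Control replicates 1 and 2 were the lowest of all 9 libraries and control replicate 3 was level with the highest BD library. The SDHD log2 fold change against control was 0.44 ± 0.34 with all libraries, 0.88 ± 0.29 without control replicate 3 (edgeR adjusted p = 0.0492) and -0.17 with control replicate 3 as the only control. The other anchor, SDHC, moved the other way, so the ratio of SDHD to SDHC was 2.48 and 2.36 in control replicates 1 and 2, 7.84 in control replicate 3, 5.33 to 5.95 in BD and 4.23 to 6.67 in NBD. The catalytic flavoprotein SDHA was at 39.4 and 38.9 CPM in control replicates 1 and 2, 28.6 CPM in control replicate 3 and 29.3 to 41.4 CPM in the sorted libraries.

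**Figure D3:**
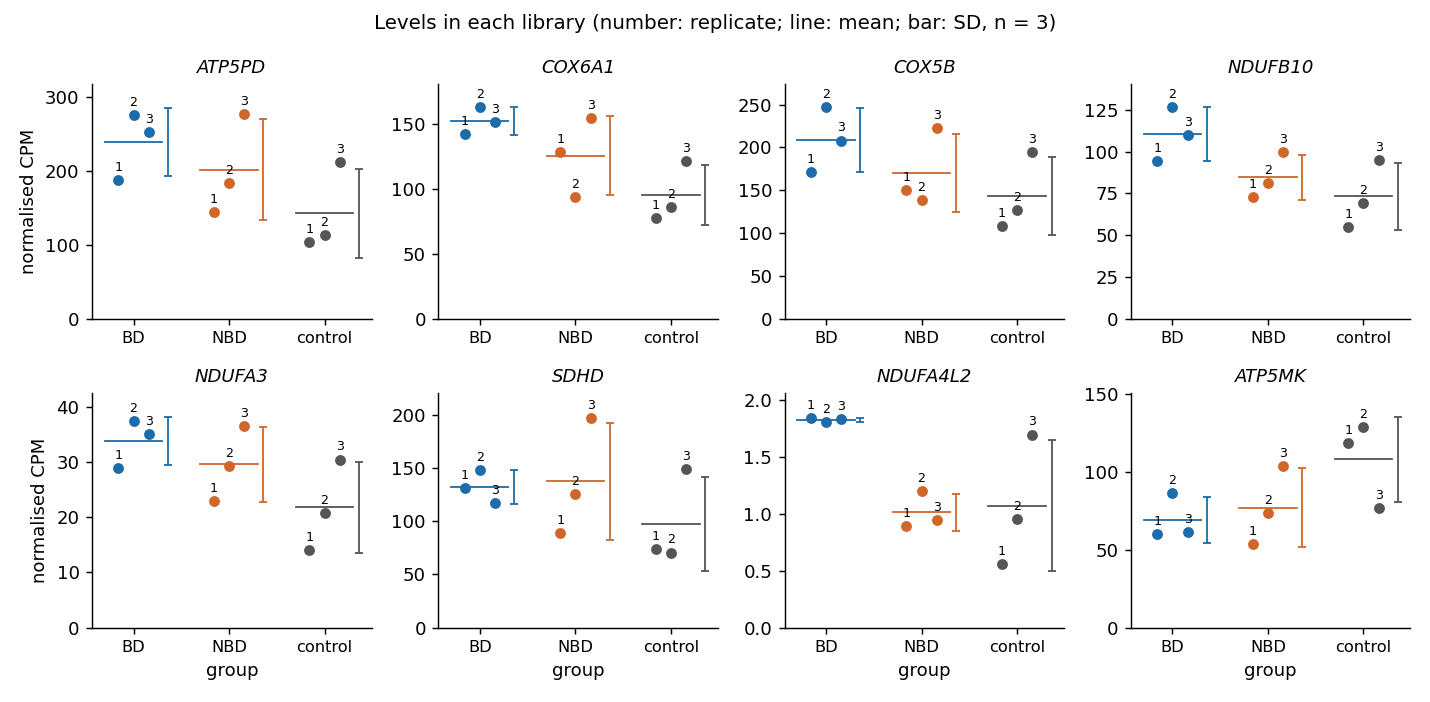
Normalised CPM of 8 members called without control replicate 3, in each library (points, numbered by replicate), with the group mean (line) and SD (bar, n = 3); each axis starts at 0. Control replicate 3 sits apart from control replicates 1 and 2 in every panel, for example at 212 CPM against 103 and 113 CPM for ATP5PD and at 76.9 CPM against 119 and 129 CPM for ATP5MK. That position follows in part from showing members called only without this library.

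The third comparison, NBD against control, used the same control libraries as the second. With all 9 libraries edgeR called 0 members and 0.0% of all genes, and DESeq2 and limma-voom called 0 members. Shares over all genes for DESeq2 and limma-voom are not given here. At an unadjusted p under 0.05, 1 member was higher and 0 lower with each of the 3 tools, beside 4.05% of all genes higher and 5.08% lower by edgeR. The median log2 fold change of the members was 0.014 (43 of 83 above 0), against 0.037 for all genes, and it was 0.15 without NBD replicate 1 and -0.13 without NBD replicate 3. NDUFA13, which is 1.20% of the 83 and the member at an unadjusted p under 0.05 and at under 2 CPM, was higher in every NBD library than in every control, beside 4.67% of all genes. No member was lower in that sense, beside 3.75% of all genes. Its level was 1.93, 1.61 and 1.10 CPM in NBD and 0.664, 0.729 and 0.904 CPM in the controls, with a log2 fold change of 1.01 ± 0.41 (edgeR adjusted p = 0.539).

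Without control replicate 3, edgeR called 2 members higher in NBD than in control and 0 lower, beside 11.6% of all genes higher and 6.56% lower. Both were also called in BD against the same controls. ATP5PD rose by 0.92 ± 0.28 (edgeR adjusted p = 0.0457) and SDHD by 0.95 ± 0.29 (edgeR adjusted p = 0.0466). Against control replicate 3 alone their log2 fold changes were -0.078 and -0.12. In BD against NBD without control replicate 3, 0 members were called by edgeR, beside 0.0901% of all genes, and 2 were higher and 0 lower at an unadjusted p under 0.05, beside 3.6% and 6.43% of all genes.

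**Figure D4:**
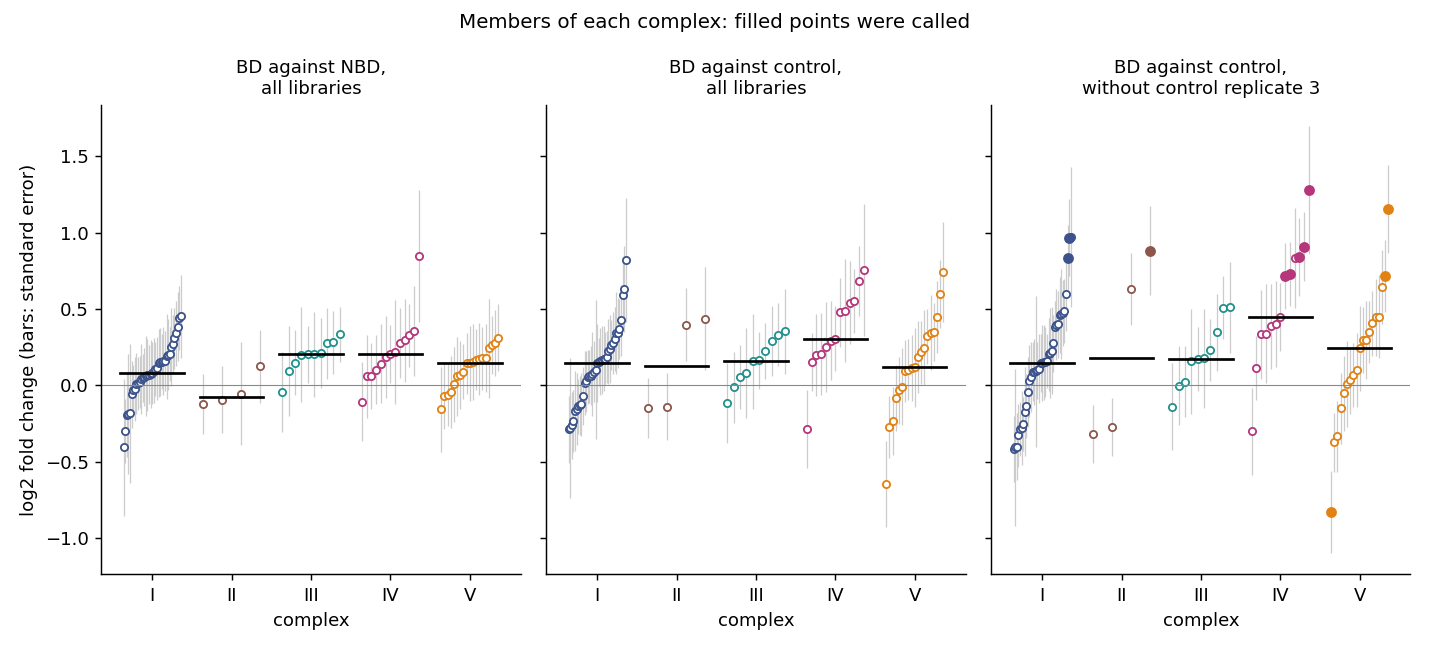
Log2 fold changes of the tested members by complex (points, with standard errors as bars; filled where the edgeR adjusted p was under 0.05; black lines are medians) in 3 panels: BD against NBD, the comparison of BD with control, and that comparison again without control replicate 3. No point is filled in the first 2 panels, and 11 are in the third, where ATP5MK is the filled point below 0.

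Several factors differed along with the libraries behind those calls. Control replicates 1 and 2 had 18054999 and 17128797 counts, against 25782938 in control replicate 3. Mitochondrial rRNA took 12.3% and 11.9% of their counts, against 20.7% in control replicate 3 and 17.3% to 28.9% in the sorted libraries. Their summed keratinocyte markers were 5267 and 5754 CPM, against 3179 to 4399 CPM elsewhere. The 12 markers did not all go with the sum: 5 had a positive log2 fold change in BD against control replicates 1 and 2, and 4 in NBD. Summed endothelial markers were 2.61 and 1.85 CPM in control replicates 1 and 2, against 6.74 to 19.0 CPM elsewhere. Of the 5 genes in that sum, CDH5 alone was lower in them, at 1.07 and 0.785 CPM against 5.92 to 18.8 CPM, while VWF was higher, at 1.53 and 1.07 CPM against at most 0.703 CPM, and the others were at no more than 0.197 CPM in any library. The labels name more than 1 RNA kit without saying which library came from which. The part of these factors in the members' differences was not tested.

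Other genes of the pathway were read from fixed lists. With all libraries, edgeR called 0 of 52 assembly factors, 0 of 14 tricarboxylic acid cycle enzymes, 0 of 15 biogenesis regulators and 0 of 11 genes of a hypoxia-linked list in any of the 3 comparisons. At an unadjusted p under 0.05, 1 assembly factor and 1 regulator were higher in BD than in NBD and none lower. Over all genes 2.04% were higher and 3.82% lower. In BD against control, 7 assembly factors and 2 cycle enzymes were higher, and 2 and 1 lower. There 4 regulators and 5 hypoxia-linked genes were lower and 0 higher, beside 4.73% of all genes higher and 9.06% lower. In NBD against control, 3 assembly factors and 1 cycle enzyme were higher, and 2 and 2 lower. There 2 regulators and 6 hypoxia-linked genes were lower and 0 higher, beside 4.05% and 5.08%. The calls and fold changes that follow are from edgeR without control replicate 3, where 13.8% of all genes were called higher and 10.5% lower in BD against control, and 11.6% and 6.56% in NBD against control. In BD, 12 assembly factors were higher and 4 lower, and in NBD 8 were higher and 2 lower. TACO1, the translational activator of COX1, rose in BD by 1.48 (log2; 0.94 with all libraries) and HIGD2A, a supercomplex assembly factor, by 1.11 (0.69 with all libraries). COX15, a heme A synthesis enzyme, was at -0.63 (-0.39 with all libraries). In control replicate 3, COX15 was at 29.7 CPM, below the 34.6 to 36.9 CPM of BD, so its direction reversed there. TACO1 and HIGD2A were at 5.20 and 27.0 CPM in control replicate 3, just under their lowest BD libraries at 5.38 and 28.0 CPM. With control replicate 3 as the only control, the assembly factors' median log2 fold change in BD was 0.063. Of the cycle enzymes, 2 were higher and 2 lower in BD, and 1 and 2 in NBD.

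Of the biogenesis regulators, 6 of 15 were called lower in BD and 0 higher, and 2 of 15 lower in NBD and 0 higher. The 6 in BD were GABPA, the DNA-binding subunit of GABP, at -0.59, YY1 at -0.52, the mitochondrial DNA packaging factor TFAM at -0.91, the rRNA methyltransferase TFB1M at -0.87, the helicase TWNK at -1.33 and the coactivator PPRC1 at -1.21. TFB1M and TWNK were the 2 in NBD. With all libraries the log2 fold changes in BD were smaller, at -0.41 for GABPA, -0.45 for YY1, -0.69 for TFAM, -0.65 for TFB1M, -0.98 for TWNK and -0.88 for PPRC1. Control replicate 3 lay inside the BD range for GABPA (21.5 CPM), TFAM (72.3 CPM) and TFB1M (24.0 CPM). It was below every BD library for TWNK (11.9 CPM) and PPRC1 (29.6 CPM), and above them for YY1 (130 CPM). With control replicate 3 as the only control, the regulators' median log2 fold change was -0.016 in BD and -0.051 in NBD. NRF1 was at 15.4 to 21.2 CPM in the 9 libraries, and PPARGC1A, the coactivator best known from muscle and brown fat, at no more than 0.207 CPM.

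Of the 11 tested genes of the hypoxia-linked list, 2 were higher and 5 lower in BD, and 0 higher and 5 lower in NBD. The 2 higher in BD were NDUFA4L2, itself a member, and FOXO3. The 5 lower in BD were BNIP3 at -3.83, CA9 at -3.36, LDHA at -1.95, PDK1 at -1.74 and MXI1 at -1.12, and with all libraries they were at -3.30, -2.90, -1.53, -1.35 and -0.90. With control replicate 3 as the only control, the median log2 fold change of the list was 0.022 in BD and -0.17 in NBD. Among the 9 called members whose promoter was in the table, 6 held at least 1 of the NRF1, ETS or YY1 motifs, beside 47.9% of all member windows and 20.1% of all windows.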

How the data were processed

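The deposited values are whole-number read counts per gene for 9 libraries, not normalized. The RNA was rRNA-depleted and the libraries were stranded and paired-end, per the labels' protocols. The submitters' processing notes list STAR 2.7.11b and featureCounts with GRCh38, along with FastQC 0.74 and Trimmomatic 0.39. Not given in the sources used here are the annotation release, the strand setting and how multiply matching reads were handled.

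Symbols came from a gene name table (61458 IDs) and from GENCODE 29, which also gave gene types, coordinates and transcript lengths. Genes were filtered with filterByExpr and scaled by TMM. The quasi-likelihood test of edgeR 4.0.16 (R 4.3.3) was run in 1 model of the 9 libraries, with groups as its only terms and 6 residual degrees of freedom. Two-sided p-values were adjusted by Benjamini-Hochberg over the 16921 genes tested, with 0.05 as the threshold for a call. CPM is relative to the TMM-scaled total, and deviations use log2 CPM with a prior count of 2. Depth was 17128797 to 29512856 counts per library, and each gene's counting error is part of the fit.

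The members and lists were chosen with earlier results of these data known. By the rule for named genes, values, by library or as a range, were given for members called in any fit (up to 4 per complex and direction by p), paralogues, core catalytic subunits, and ATP5IF1. NDUFA9, NDUFA11, NDUFA13, NDUFB11, COX6C, TACO1, HIGD2A and COX15 fall outside it and were chosen after their values were seen. Alternatives were RLE size factors, no filter, a stricter filter (1 CPM in at least 3 libraries), DESeq2 1.42.0, limma-voom from limma 3.58.1, a block for the replicate number, nuclear protein-coding genes alone, the 6 libraries compared, each library left out, control replicate 3 standing for all controls, and removal of a lowess trend on transcript length (span 0.3, statsmodels 0.14.6). Values of 1 member are not reported here. The edgeR test was tested on simulated data. Plots used matplotlib 3.10.9 in Python 3.11.15.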

Additional observations from a re-analysis of the deposited data

How the results depend on the processing

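The number of members called was 0 in BD against NBD under every alternative run, DESeq2 and limma-voom included, with 0 at an unadjusted p under 0.05 in all 3 tools with all libraries. These counts do not show that BD and NBD were alike in the members. Leaving out each library in turn gave 0 to 11 members called in BD against control and 0 to 2 in NBD against control, and the values above 0 came from leaving out control replicate 3. Of the 25 fold changes of single members tested this way, with 18 alternatives each, 434 of 450 values kept their direction and their side of the threshold, 13 passed it without control replicate 3, and 3 changed sign. Those 3 were taken against control replicate 3 alone: SDHD in BD (-0.17), and ATP5PD (-0.078) and SDHD (-0.12) in NBD. The cause was not tested. None of the 25 fold changes was called with all libraries, so keeping a side of the threshold meant staying uncalled. Sizes varied among the alternatives. In BD against control COX5B ran from 0.094 to 0.84 and NDUFA4L2 from 0.10 to 1.28, while NDUFA9 in BD against NBD ran from 0.20 to 0.34. The median for BD against NBD was 0.13 to 0.16 under other size factors, filters and tools, and 0.0026 to 0.30 when single libraries were left out.

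The replicate numbers were not taken to pair the libraries. Same-numbered BD and NBD libraries correlated in their deviations from the group means at 0.61, 0.068 and 0.33. For BD and control these correlations were 0.25, 0.040 and 0.26, and for NBD and control 0.036, 0.44 and 0.37. All same-numbered pairs were thus above 0. Differently numbered pairs ran from -0.57 to 0.42, most of them below 0. BD replicate 2 correlated best with NBD replicate 3 (0.42) rather than with its own number. What the replicate numbers stand for was not tested. With the replicate block, 0 members were called in each comparison, and the medians were 0.14 for BD against NBD, 0.17 for BD against control and -0.0071 for NBD against control. The depth of control replicates 1 and 2 puts 3 counts at 0.153 and 0.168 CPM, which limits what can be said of the isoforms with few or no counts.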
